A study of Mus musculus with 24 samples.

Results

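The TNF superfamily genes were taken as every gene symbol in the count table that reads Tnf, Tnfsf or Tnfrsf followed by a number and any trailing letters, together with Lta, Ltb and Ltbr. The rule found 36 of the 46477 symbols listed, of which 14 are ligands and 21 are receptors. The remaining symbol, Tnfsf13os, is an antisense RNA on the opposite strand of Tnfsf13, caught by its letters alone. All 36 had at least 1 count in some library, and 29 passed the filter on low counts and were tested (9 ligands, 19 receptors and Tnfsf13os). The 7 that were too low to test were the ligands Tnfsf4, Tnfsf8, Tnfsf11, Tnfsf15 and Tnfsf18 and the receptors Tnfrsf17 and Tnfrsf19.

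The libraries were made from granulocytic myeloid-derived suppressor cells (G-MDSCs), a population of neutrophil-like cells, of the livers of wild-type male BALB/C mice aged 8 weeks. Mice underwent 70% hepatectomy, or a sham operation limited to a midline laparotomy, and CD11b+Ly6G+ cells were isolated on magnetic columns from the non-parenchymal fraction on postoperative day (POD) 1, 2, 3 or 4. There were 3 libraries of poly-A RNA for each of the 8 groups, 24 in all. The labels do not say whether each library came from 1 animal or from a pool, so the spread between libraries may be partly technical. Except where a fit of 1 day is named, p-values rest on a spread estimated over all 24 libraries. That spread is not only of the groups compared.

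Ligands of the TNF superfamily are mostly trimeric membrane proteins, some of which are cleaved into soluble cytokines. Their receptors either carry a death domain, which can lead to caspase activation, or bind TRAF adaptors, which lead to NF-κB and MAP kinase signalling, and a few act as decoys. In the liver, TNF acting through its receptor Tnfrsf1a is known for its part in the priming of hepatocytes after partial hepatectomy, and neutrophils and monocytes are known sources of TNF and of the B cell factors BAFF and APRIL.

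The libraries differed in make-up beyond what their labels say. Total counts ranged from 10390216 to 16949088. Levels are given as CPM, each library's counts put on a common scale of total counts with factors from the trimmed mean of M values (TMM). The sum of 16 neutrophil markers was 233655 to 276482 CPM at POD1 after hepatectomy and 7413 to 124461 CPM at POD1 after sham. By the test described below, 2 of the 14 neutrophil markers tested were higher at POD1 and 0 were lower. An endothelial score was taken as the average of log2(CPM + 1) over the 18 liver sinusoidal endothelial markers found in the table. It was 4.65 to 5.62 in the hepatectomy libraries of POD1, while the sham libraries of POD1 scored 6.53, 8.34 and 10.73 in replicates 1, 2 and 3. Over the series, 9 libraries scored 8.34 or less and 15 scored 9.88 or more, although a CD11b+Ly6G+ isolation is meant to leave endothelial cells out. The low 9 were the 3 hepatectomy libraries of POD1, replicate 1 of hepatectomy at POD3 and at POD4, replicates 1 and 2 of sham at POD1, and replicates 2 and 3 of sham at POD4. In RNA from a mixture of cells, fewer cells of a type and less RNA per cell cannot be told apart.

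Promoters of 4 members are given here, those of the 2 with the highest fold change at POD1, the 1 with the lowest among members with counts in both groups, and Tnfsf13, which had 0 counts in every hepatectomy library of POD1. They are shown as 250 bases before a RefSeq start on GRCm38.p6, because NF-κB is the transcription factor downstream of most of these receptors. Capitals mark matches to the κB consensus, searched on both strands. Tnfrsf8, the receptor CD30, and Tnfrsf9, the costimulatory receptor CD137, were higher after hepatectomy. Tnfsf10, the death ligand TRAIL, and Tnfsf13, the B cell factor APRIL, were lower.
Tnfrsf8, chr4:145315165-145315414, minus strand: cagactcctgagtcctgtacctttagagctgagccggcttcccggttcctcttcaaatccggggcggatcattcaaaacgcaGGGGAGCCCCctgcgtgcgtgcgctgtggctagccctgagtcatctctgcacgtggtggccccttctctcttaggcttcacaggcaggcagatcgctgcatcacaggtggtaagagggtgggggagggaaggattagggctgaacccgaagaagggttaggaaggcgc
Tnfrsf9, chr4:150927749-150927998, plus strand: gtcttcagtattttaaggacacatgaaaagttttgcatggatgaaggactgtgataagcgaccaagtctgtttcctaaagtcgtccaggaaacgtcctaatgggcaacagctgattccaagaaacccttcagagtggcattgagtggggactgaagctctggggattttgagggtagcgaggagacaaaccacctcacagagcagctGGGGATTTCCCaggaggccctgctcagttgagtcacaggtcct
Tnfsf10, chr3:27316827-27317076, plus strand: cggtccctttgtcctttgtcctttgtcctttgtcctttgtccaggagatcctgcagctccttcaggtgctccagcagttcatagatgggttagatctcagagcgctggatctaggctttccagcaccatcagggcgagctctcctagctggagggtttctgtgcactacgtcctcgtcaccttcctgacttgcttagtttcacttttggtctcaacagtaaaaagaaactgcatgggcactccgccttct
Tnfsf13, chr11:69685555-69685804, minus strand: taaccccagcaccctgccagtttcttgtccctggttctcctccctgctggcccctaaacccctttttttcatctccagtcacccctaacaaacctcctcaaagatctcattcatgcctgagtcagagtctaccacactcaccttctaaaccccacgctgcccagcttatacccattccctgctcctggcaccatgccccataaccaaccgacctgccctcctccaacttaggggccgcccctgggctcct

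The stretch before Tnfrsf8 held 1 match, whose first base lay 168 bases before the start. The second of the 2 listed starts of Tnfrsf9 had 2 overlapping matches, the first of them 43 bases before the start, and the first listed start had none. No match was found in the windows of Tnfsf10 and Tnfsf13. Of the 28 members with a promoter in the RefSeq table, 3 held a match in at least 1 of their windows (Tnfrsf8, Tnfrsf9 and Ltb, whose match lay 87 bases before its start), while 1204 of all 27025 genes in that table (4.46%) did. Counted by window, 1281 of all 32851 promoters of the same length (3.9%) held a match. By outcome at POD1, the matches were in 2 of 5 members that were higher, 0 of 5 that were lower, 1 of 12 that did not pass the test and 0 of 6 that were not tested. A match describes the letters in the window and does not show binding.

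The first comparison asked how hepatectomy changed these genes within each day, beginning with POD1. At POD1, 12 of the 29 members tested passed an adjusted p of 0.05 (41.4%), against 40.9% of the 14325 genes tested, so the share called was near that of all genes. Of the 12, 6 were higher after hepatectomy (Lta, Tnfrsf8, Tnfrsf9, Tnfrsf13b, Tnfrsf14 and Tnfrsf26), where the background was 13% of genes, and 6 were lower (Tnfsf10, Tnfsf12, Tnfsf13, Tnfsf13b, Tnfrsf13c and Ltbr), where the background was 28%. Tests were edgeR quasi-likelihood F tests with Benjamini-Hochberg adjustment over all genes. The median log2 fold change was -0.19 over the members and -0.42 over all genes. Of the 9 ligands tested, 1 was higher and 4 were lower, and of the 19 receptors, 5 were higher and 2 were lower. Without replicate 3 of sham at POD1, the library with the endothelial score of 10.73, 8 members passed (27.6%), 3 of them higher and 5 lower, beside 22.6% of all genes in that fit (9.01% higher and 13.6% lower), and the calls of Lta, Ltbr, Tnfrsf14 and Tnfrsf26 were lost. With scaling by library size alone, 18 passed (62.1%), 4 higher and 14 lower, beside 60.6% of all genes (4.26% higher and 56.3% lower). With the endothelial score as a covariate, 11 passed (37.9%), 3 higher and 8 lower, beside 43.5% of all genes (19% higher and 24.5% lower), and 5 of these 11 were not among the 12: Tnfsf9, which was higher, and Tnfsf14, Tnfrsf1a, Tnfrsf18 and Tnfrsf21, which were lower. The scaling by library size moved the median of all genes to -1.43, and the TMM factors were 0.46 to 0.51 in the hepatectomy libraries of POD1 and 0.67 to 1.38 in the sham libraries of POD1.

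**Figure D1:**
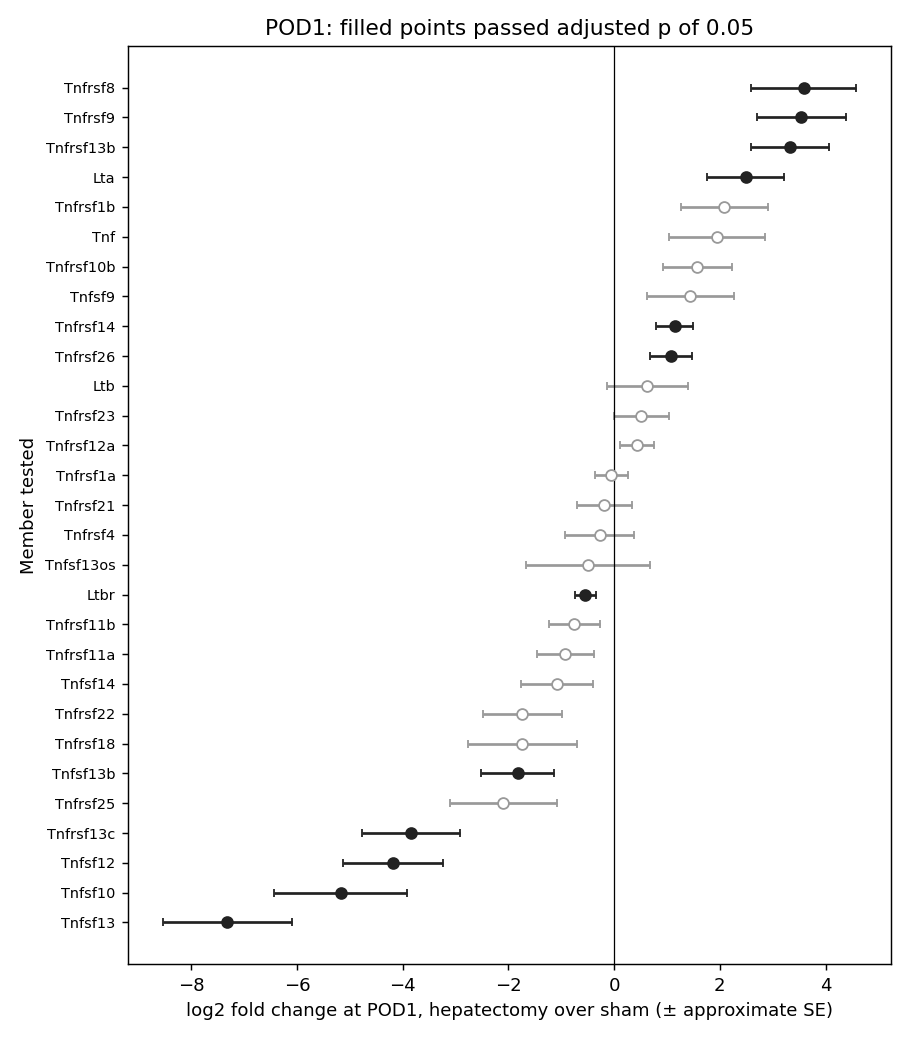
Log2 fold change at POD1, hepatectomy over sham, of the 29 members tested (horizontal axis, one member a row), with its approximate SE as a bar. Filled points are the 12 that passed an adjusted p of 0.05; 6 lie to the right of 0 and 6 to the left, from Tnfrsf8 at 3.58 down to Tnfsf13, whose fitted value depends on the prior count because its hepatectomy libraries hold 0 counts.

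Among the ligands, Tnf, the founding cytokine of the family, was the most abundant at POD1 after hepatectomy per kilobase of exon, at a mean of 1090.4 CPM per kb against 283 CPM per kb after sham. Its level was 2378, 1488 and 1496 CPM in the hepatectomy libraries and 637, 701 and 53.3 CPM in the sham libraries. All hepatectomy libraries lay above all sham libraries, and replicate 3 of sham was far below the other sham libraries. The log2 fold change of 1.95 ± 0.90 (SE, n = 3 each) did not pass the test at POD1 (edgeR adjusted p = 0.0886). Tnf did pass with DESeq2, without replicate 1 of sham at POD4, and without the 4 libraries of POD3 and POD4 with a low endothelial score. In the other alternative fits it did not pass. Summed markers of monocytes, another source of TNF, were 10793 to 12317 CPM after hepatectomy and 695 to 4966 CPM after sham at POD1, with 2 of 9 higher, 3 lower and none at 0 in all libraries of a group. Their part in the level of Tnf was not tested.

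Lta, which encodes lymphotoxin alpha, a soluble ligand of the TNF receptors, lies beside Tnf on chromosome 17 (GRCm38, 35203165 to 35205351, minus strand), and Ltb lies on the other side of Tnf. Lta was low throughout and had 1.95, 2.09 and 2.63 CPM at POD1 after hepatectomy and 0.56, 0.46 and 0.20 CPM after sham. The groups did not overlap, and Lta was higher after hepatectomy by a log2 fold change of 2.49 ± 0.73 (adjusted p = 0.0129). Ltb, which encodes lymphotoxin beta, the membrane anchor of the heterotrimer, had 635, 677 and 1034 CPM after hepatectomy and 576, 875 and 64.2 CPM after sham, so the groups overlapped. Its log2 fold change of 0.63 ± 0.76 did not pass (adjusted p = 0.517), and its sign turned to -0.12 with library size alone.

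The ligands TRAIL, TWEAK and APRIL were lower after hepatectomy at POD1. Tnfsf10, encoding TRAIL, had 0.78, 0.70 and 1.90 CPM in the hepatectomy libraries and 4.49, 16.0 and 101 CPM in the sham libraries. The groups did not overlap, and the sham libraries rank in the order of their endothelial scores. The log2 fold change was -5.17 ± 1.25 (adjusted p = 0.00455). It was -3.19 without replicate 3 of sham (adjusted p = 0.0458), and it did not pass the test with the endothelial score as a covariate. The scores of the operations do not overlap at POD1, and the part of endothelial RNA in the level of Tnfsf10 was not tested.

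Tnfsf12, encoding TWEAK, a ligand of the receptor Fn14, had 1.69, 0.84 and 1.75 CPM after hepatectomy and 8.31, 17.4 and 52.1 CPM after sham. The groups were again separate, and replicate 3 of sham was again the highest. The log2 fold change was -4.18 ± 0.95 (adjusted p = 0.00312), and it was -1.26 and still past the test with the endothelial score as a covariate (adjusted p = 0.00302). The part of endothelial RNA in the level of Tnfsf12 was likewise not tested.

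Tnfsf13, encoding APRIL, had 0 counts in all 3 hepatectomy libraries of POD1, and 0.67, 0.74 and 2.48 CPM in the sham libraries. It was lower after hepatectomy and passed the test (edgeR adjusted p = 0.00041). The sham mean of 1.30 CPM was 3.12 times a floor of 3 counts in each hepatectomy library (0.42 CPM). Replicate 3 of sham raised that mean, so the fold over the floor is smaller for replicates 1 and 2. Tnfsf12 and Tnfsf13 are neighbours on chromosome 11 and share exon sequence with the read-through gene Tnfsfm13 on the same strand, and Tnfsf13 also overlaps Tnfsf13os on the opposite strand. Reads of these genes may have been split between them or left uncounted, and the strand setting of the counting is not given in the sources used here. Tnfsfm13 itself had 2, 5 and 0 counts in the hepatectomy libraries and 15, 23 and 113 counts in the sham libraries.

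Tnfsf13b, encoding BAFF, the survival factor of B cells, had 4.41, 4.19 and 2.63 CPM after hepatectomy and 20.4, 17 and 2.68 CPM after sham. Replicates 1 and 2 of sham were high, whereas replicate 3 of sham was at the level of the hepatectomy libraries. The log2 fold change of -1.83 ± 0.69 passed the test (adjusted p = 0.0421), but the call was lost in 6 of the 24 fits that left out 1 library. These 6 left out each hepatectomy library of POD1, replicates 1 and 2 of sham at POD1, or replicate 1 of hepatectomy at POD2. Summed markers of Kupffer cells and macrophages were 806 to 928 CPM after hepatectomy and 1936 to 2999.7 CPM after sham at POD1, with 8 of 13 lower and 1 higher. Those of dendritic cells and MHC class II were 140 to 155 CPM after hepatectomy and 360 to 591 CPM after sham, with 7 of the 9 tested lower and Siglech at 0 in all 3 hepatectomy libraries. Their part in the levels of Tnfsf13 and Tnfsf13b was not tested. Of the other tested ligands, Tnfsf9, the ligand of CD137, had separate groups at 3.07 to 4.15 CPM after hepatectomy and 0.67 to 1.75 CPM after sham, and did not pass. Tnfsf14, encoding LIGHT, overlapped at 34.9 to 67.1 CPM after hepatectomy and 22.2 to 162 CPM after sham.

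Both receptors of TNF itself were abundant at POD1. Tnfrsf1b, the TNF receptor of haematopoietic and endothelial cells, had 3205, 2521 and 2942 CPM at POD1 after hepatectomy and 976, 991 and 84.0 CPM after sham. Every hepatectomy library was above every sham library, but the log2 fold change of 2.08 ± 0.82 missed the threshold (adjusted p = 0.0501). It passed with DESeq2 (adjusted p = 0.0173), with DESeq2 size factors, with the replicate block and without the 4 late libraries of low endothelial score. It did not pass with library size alone or the endothelial covariate. Some fits that left out 1 library of POD3 or POD4 called it, and none that left out 1 of POD1 or POD2 did. Tnfrsf1a, the widely expressed death domain receptor, had 837, 818 and 886 CPM after hepatectomy and 1217, 862 and 553 CPM after sham. These groups overlapped, with a log2 fold change of -0.05 ± 0.31 (adjusted p = 0.909) that was 0.03 with DESeq2 size factors and -0.92, past the test, with library size alone. Whether the changes of the 2 receptors differ was not tested.

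Ltbr, the lymphotoxin beta receptor, had 109, 112 and 99.9 CPM in the hepatectomy libraries and 153, 150 and 165 CPM in the sham libraries. The groups were separate and tight, and Ltbr was lower by a log2 fold change of -0.54 ± 0.19 (adjusted p = 0.0323). The median over all genes was -0.42 in the same comparison. The call was lost in 4 of the 24 fits that left out 1 library: each hepatectomy library of POD1 and replicate 3 of sham at POD1. It was also lost with DESeq2 size factors, with no low-count filter, in the fit of POD1 alone and with the endothelial score as a covariate.

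The costimulatory receptors CD30, CD137 and HVEM were higher after hepatectomy at POD1. Tnfrsf8, encoding CD30, had 19.3, 19.3 and 15.8 CPM after hepatectomy and 1.57, 2.86 and 0.20 CPM after sham. The log2 fold change between these separate groups was 3.58 ± 0.99 (adjusted p = 0.00917), and it was 1.41, no longer past the test, with the endothelial score as a covariate. Tnfrsf8 adjoins Tnfrsf1b on chromosome 4 (145267137 to 145315164 and 145213463 to 145246870).

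Tnfrsf9, encoding CD137, had 7.27, 6.14 and 9.05 CPM after hepatectomy and 0.34, 1.48 and 0.15 CPM after sham. It was separate between the groups, with a log2 fold change of 3.54 ± 0.84 (adjusted p = 0.00461), and it kept its call with the endothelial score as a covariate at 2.76 (adjusted p = 0.0244). Tnfrsf14, encoding HVEM, the receptor of LIGHT, had 11.2, 10.2 and 10.5 CPM after hepatectomy and 6.40, 4.15 and 3.90 CPM after sham, a log2 fold change of 1.14 ± 0.34 (adjusted p = 0.0141). Its groups were separate, but the call was lost without replicate 3 of sham at POD1 (adjusted p = 0.0665).

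Of the receptors of BAFF and APRIL known from the B cell lineage, Tnfrsf13b and Tnfrsf13c moved in opposite directions, and Tnfrsf17 was too low to test. Tnfrsf13b, encoding TACI, which binds both ligands, had 66.7, 61.4 and 50.7 CPM after hepatectomy and 8.20, 7.57 and 2.28 CPM after sham. The groups were far apart, and the log2 fold change was 3.32 ± 0.74 (adjusted p = 0.00274). Summed markers of plasma cells, which can carry TACI, were 1285 to 1401 CPM after hepatectomy and 214 to 457 CPM after sham, with 2 of 8 higher, 4 lower and none at 0 in all libraries of a group. Their part in the level of Tnfrsf13b was not tested.

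Tnfrsf13c, the BAFF receptor proper, had 0, 0.28 and 0 CPM after hepatectomy and 1.12, 2.03 and 1.17 CPM after sham. This is 2 counts in the hepatectomy libraries together and 55 counts in the sham libraries, a ratio of 0.0661 with a 95% interval of 0.00781 to 0.25 that covers counting error only. The groups were separate and the change passed the test (log2 fold change -3.84 ± 0.93, adjusted p = 0.00462). Summed B cell markers were 3.94 to 6.62 CPM after hepatectomy and 37.2 to 57.9 CPM after sham. Of the 12 B cell markers, 10 were lower and none was higher, and Ms4a1 and Spib were at 0 in all 3 hepatectomy libraries. The part of B cell RNA in the level of Tnfrsf13c was not tested.

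The mouse receptor genes Tnfrsf22, Tnfrsf23 and Tnfrsf26 form a cluster on chromosome 7 (143607659 to 143685872), and Tnfrsf22 and Tnfrsf23 are known as decoy receptors of TRAIL. They are similar in sequence and may share reads, and Tnfrsf23 and Tnfrsf26 also overlap a transcript on the opposite strand. Tnfrsf26 had 87.9, 69.4 and 53.5 CPM after hepatectomy and 30.7, 54.1 and 14.7 CPM after sham. It was higher by a log2 fold change of 1.08 ± 0.40 (adjusted p = 0.036), although replicate 2 of sham lay above replicate 3 of hepatectomy. The call was lost in 4 of the 24 fits that left out 1 library, namely replicate 1 or 2 of hepatectomy or replicate 1 or 3 of sham at POD1. Tnfrsf22 had separate groups in the other direction, at 2.63 to 4.33 CPM after hepatectomy and 5.62 to 17.4 CPM after sham, and did not pass (adjusted p = 0.0708). Tnfrsf23 overlapped, at 75.9 to 96.8 CPM after hepatectomy and 13.3 to 109 CPM after sham.

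The other receptors did not pass the test at POD1. Tnfrsf10b, the death receptor of TRAIL, was separate and higher, at 5.30 to 8.57 CPM after hepatectomy and 0.83 to 4.94 CPM after sham (adjusted p = 0.0611). Tnfrsf11a (RANK), Tnfrsf11b (osteoprotegerin), Tnfrsf12a (Fn14), Tnfrsf18 (GITR), Tnfrsf21 (DR6), Tnfrsf25 (DR3) and Tnfrsf4 (OX40) overlapped between the groups. Counting both directions, 15 of the 29 members had groups that did not overlap at POD1 (51.7%), 9 higher and 6 lower, and 49.4% of all genes did so (21.3% higher and 28.1% lower). The log2 fold changes of 4 members changed sign between scalings: Ltb, Tnfrsf1a, Tnfrsf12a and Tnfrsf23.

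**Figure D2:**
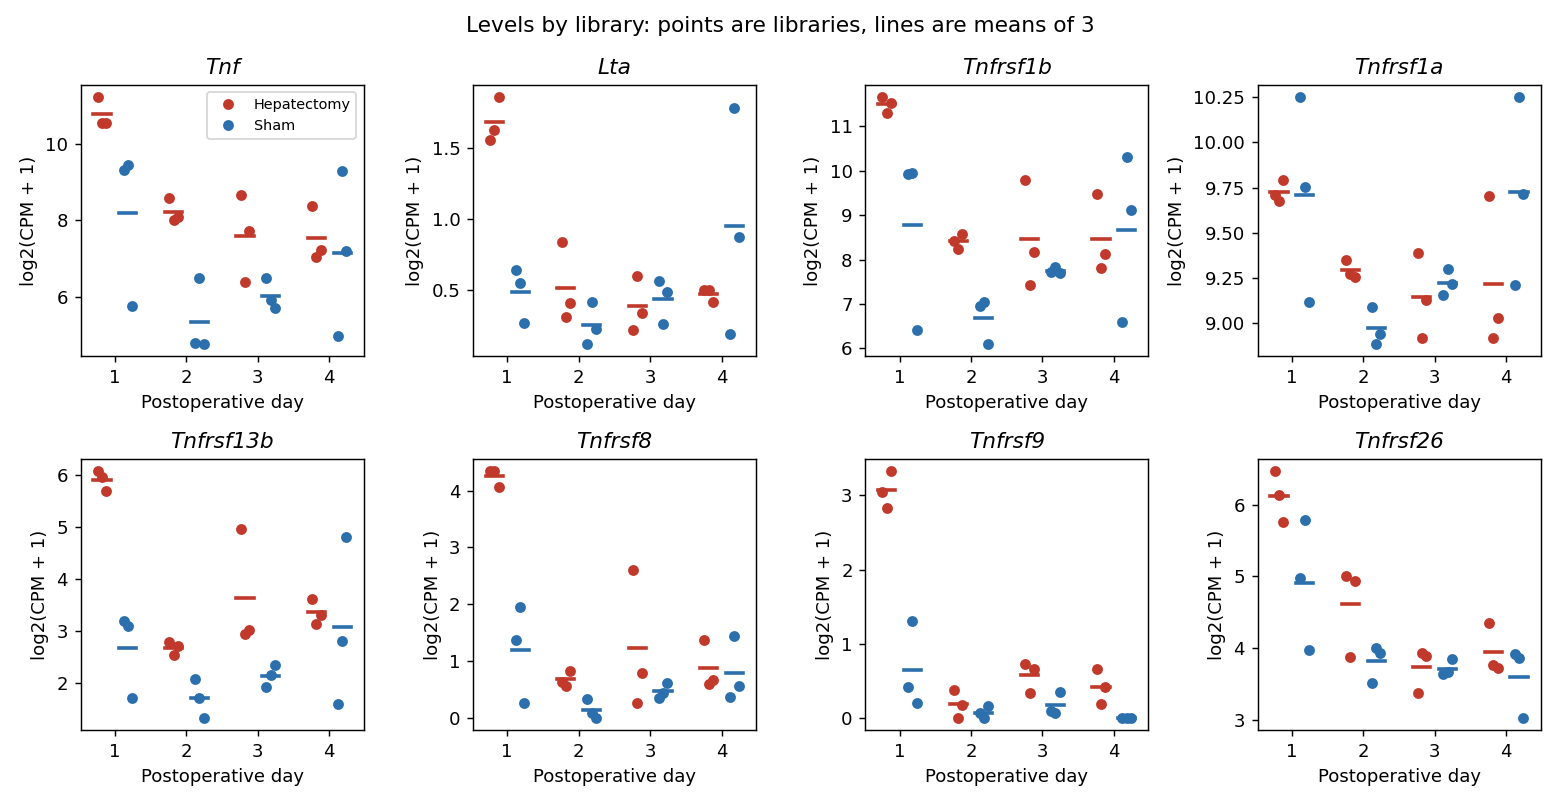
Log2(CPM + 1), TMM-scaled, by postoperative day for 8 members, among them TNF and its receptors. Each point is a library (hepatectomy in red on the left of each day, sham in blue on the right) and lines are means of 3; for Tnf, Tnfrsf1b, Tnfrsf8, Tnfrsf9, Tnfrsf13b and Lta the POD1 hepatectomy points lie above all other hepatectomy points.

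**Figure D3:**
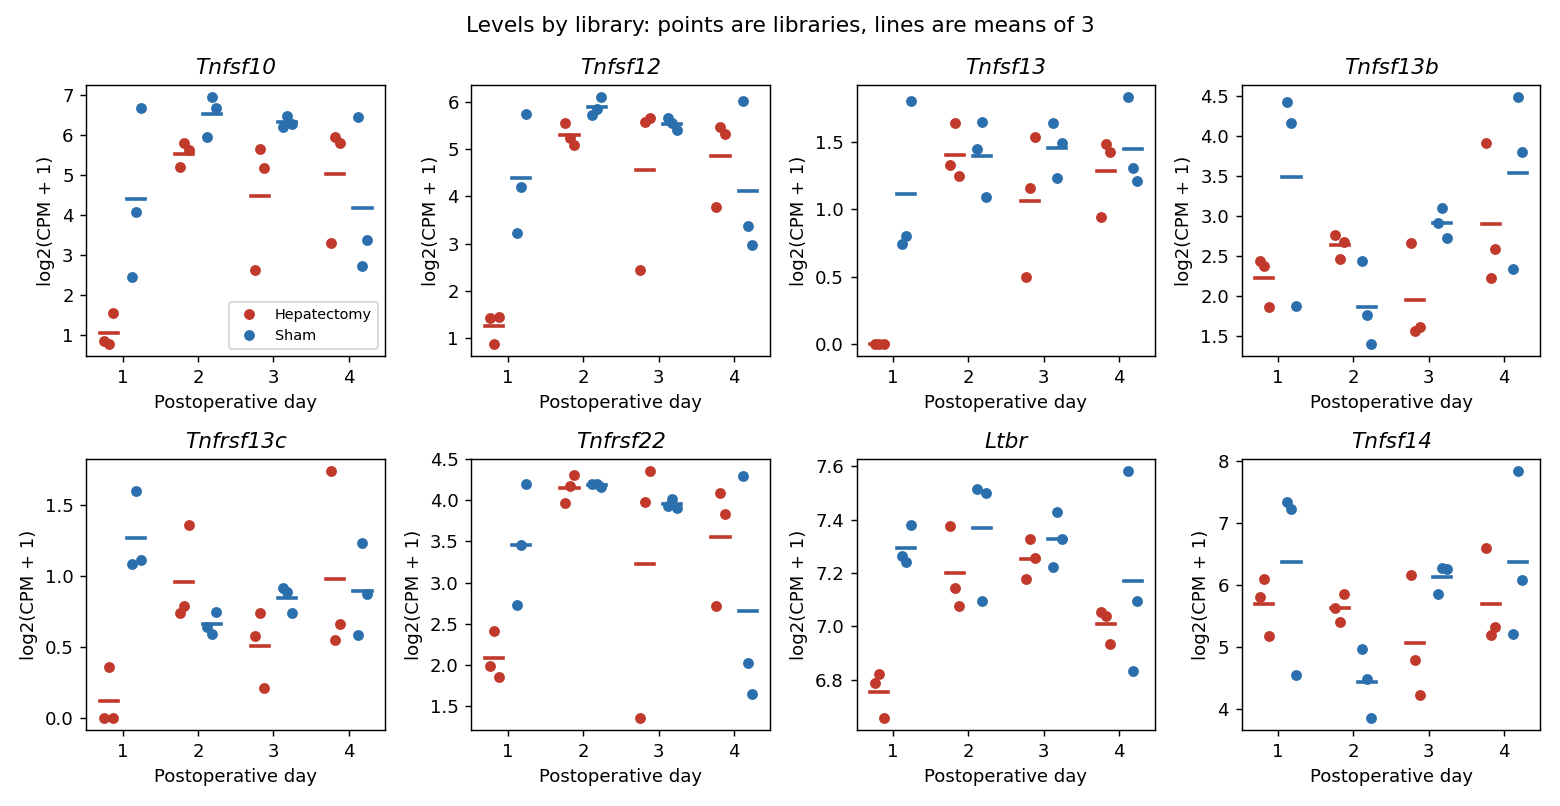
Log2(CPM + 1), TMM-scaled, by postoperative day for 8 further members, with hepatectomy in red on the left of each day and sham in blue on the right, each point a library and lines means of 3. Tnfsf10, Tnfsf12 and Tnfsf13 have their lowest hepatectomy points at POD1, and Tnfsf13 is at 0 there.

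Genes that carry the signal of these receptors were read from lists of 5 kinds, to be set against the 13% of all genes that were higher and the 28% that were lower at POD1. Of 5 NF-κB subunits, 4 were higher at POD1 and none lower: Nfkb1, Relb, Nfkb2 and Rel, with log2 fold changes of 2.38, 2.79, 2.85 and 2.34. Nfkb1 had 965, 789 and 1108 CPM after hepatectomy and 207, 205 and 137 CPM after sham (adjusted p = 1.37e-05), and the groups lay far apart. The list's median was 2.38, beside -0.42 for all genes. Rela, at 0.75, did not pass.

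Of 11 feedback inhibitors and deubiquitinases of the pathway, 6 were higher and 1 was lower, with a median of 1.66. Tnip1, a partner of the inhibitor A20, was at 2277, 1652 and 2128 CPM after hepatectomy and 151, 264 and 74.2 CPM after sham, a log2 fold change of 3.63 ± 0.63 (adjusted p = 0.000429). Nfkbib, an inhibitor of NF-κB, was higher by 2.47, and the deubiquitinase gene Otud7b was higher by 1.21. Tnfaip3, encoding A20, had separate groups and a log2 fold change of 2.34 that did not pass (adjusted p = 0.0546). Nfkbia, encoding IκBα, did not pass either (log2 fold change 0.99, adjusted p = 0.36). The list had 3 higher and 1 lower without replicate 3 of sham at POD1, 4 higher and 0 lower without replicate 1 of hepatectomy at POD1, and 3 higher and 1 lower, with a median of 0.27, with the endothelial score as a covariate.

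Of 25 adaptors and kinases next to the receptors, 9 were higher and 2 were lower, with a median of 0.66. Traf1, an adaptor that binds TNFR2, CD30 and CD137, averaged 594 ± 132 CPM after hepatectomy and 15.5 ± 10.8 CPM after sham (SD, n = 3 each). Its log2 fold change was 5.26 ± 0.81 (adjusted p = 0.000155). Cflar, the inhibitor of caspase-8 activation, was higher by 2.29, the necroptosis kinase gene Ripk3 by 2.15 and the adaptor gene Traf6 by 1.41. With library size alone the split of this list turned to 4 higher and 10 lower, and its median to -0.43. With the endothelial score as a covariate it was 7 higher and 6 lower, and without replicate 1 or replicate 2 of hepatectomy at POD1 it was 7 higher and 0 lower or 6 higher and 1 lower.

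Of 6 sheddases and their regulators, none was higher and 2 were lower: Timp3, an inhibitor of the TNF sheddase, at a log2 fold change of -3.05, and Rhbdf1, at -2.76. Neither call held without replicate 3 of sham at POD1 or with the endothelial score as a covariate, and 1 was lost without any 1 of the hepatectomy libraries of POD1. Adam17, the TNF sheddase itself, did not pass (log2 fold change 0.99, adjusted p = 0.108). Of 11 members of the superfamily whose symbols the rule does not match, 6 were tested, and Fas, the death receptor, was higher by 2.35 while Cd27 was lower by a log2 fold change of -4.55. Fas was at 600 to 739 CPM after hepatectomy and 63.4 to 174 CPM after sham, and the call of Cd27 was lost without replicate 3 of sham or replicate 1 of hepatectomy at POD1.

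At POD2 no member passed the test, and 0.0977% of all genes did. Without adjustment 4 members had a p under 0.05, 3 higher and 1 lower, where 8.87% of all genes had one, and the lowest adjusted p was 0.28, of Tnfrsf23. The groups of 14 members did not overlap (48.3%), 11 higher and 3 lower, beside 44.6% of all genes (22.9% higher and 21.7% lower). Tnf had 380, 256 and 268 CPM after hepatectomy and 26.5, 88.1 and 26.0 CPM after sham, separate groups with a log2 fold change of 2.68 ± 0.93 (adjusted p = 0.369). Tnfrsf1b had 343, 301 and 377 CPM after hepatectomy and 122, 130 and 67.5 CPM after sham, again separate, with a log2 fold change of 1.67 ± 0.81 (adjusted p = 0.566).

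In a fit of the 6 libraries of POD2 alone, 9 of the 24 members tested passed (37.5%), beside 3802 of 13145 genes (28.9%). Higher in that fit were Tnf (log2 fold change 2.67, adjusted p = 0.00633), Ltb, Tnfsf14, Tnfrsf1b, Tnfrsf13b and Tnfrsf23, and lower were Tnfsf10, Tnfsf12 and Tnfrsf11b. With the endothelial score as a covariate in all 24 libraries, Tnf, Tnfrsf1b and Tnfrsf23 were higher at POD2, 10.3% of members beside 7.32% of all genes. The score was 9.99 to 10.23 after hepatectomy and 10.50 to 10.76 after sham at POD2. Summed neutrophil markers were 20173 to 31599 CPM after hepatectomy and 3791 to 9033 CPM after sham. Of the 14 neutrophil markers tested, 0 passed at POD2 in the fit of all 24 libraries without the covariate. The part of cell make-up in these differences was not tested.

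At POD3 no member passed, and 0.0209% of all genes did. Without adjustment 2 members had a p under 0.05, Tnfrsf13b and Tnfrsf8, both higher, where 7.58% of all genes had one. The groups of 6 members did not overlap (20.7%), beside 17% of all genes, with 8.03% higher and 8.96% lower. Of the 6, Tnfrsf12a, Tnfrsf13b and Tnfrsf23 were above and Tnfsf10, Tnfsf13b and Tnfrsf13c below the sham libraries. Tnfrsf13b had 30.2, 6.77 and 7.12 CPM after hepatectomy and 2.79, 3.50 and 4.09 CPM after sham (log2 fold change 2.08 ± 0.71, adjusted p = 0.298). The first of these hepatectomy libraries, which also has the low endothelial score of 6.16, was far above the rest.

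At POD4 no member passed, and 0% of all genes did. Without adjustment 2 members had a p under 0.05, the receptor Tnfrsf9 and its ligand Tnfsf9, both higher, where 4.81% of all genes had one (2 of 29 is 6.9%). They were also the 2 members whose groups did not overlap (6.9%), beside 5.06% of all genes, with 2.69% higher and 2.37% lower. Tnfrsf9 had 0.58, 0.14 and 0.34 CPM after hepatectomy and 0 counts in all 3 sham libraries. Its hepatectomy mean of 0.35 CPM was only 1.13 times a floor of 3 counts in each sham library (0.31 CPM). Tnfsf9 had 1.84, 4.09 and 4.05 CPM after hepatectomy and 0.64, 0.61 and 1.19 CPM after sham (log2 fold change 2.04 ± 0.84, adjusted p = 0.907). DESeq2 also called no member at POD2, POD3 or POD4.

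The second comparison asked whether levels differed between the 4 days within an operation. After hepatectomy, 15 of 29 members differed between days (51.7%), where 44.8% of all genes did. For 10 of the 15, all 3 POD1 libraries lay above every later hepatectomy library: Lta, Tnf, Tnfrsf1b, Tnfrsf8, Tnfrsf9, Tnfrsf10b, Tnfrsf13b, Tnfrsf14, Tnfrsf23 and Tnfrsf26. Of the 6422 genes that differed between these days, 37.8% lay above in this way. For 3 members, the ligands Tnfsf10, Tnfsf12 and Tnfsf13, the POD1 libraries lay below every later one, as did those of 51.4% of the 6422 genes. Tnfrsf11a and Tnfrsf13c had their lowest mean at POD1 with some overlap. The endothelial score was 4.65 to 5.62 in the hepatectomy libraries of POD1 and 6.16 to 10.37 in the later ones. Summed neutrophil markers were 233655 to 276482 CPM at POD1 and at most 93199 CPM later. Between POD1 and the later days after hepatectomy, day and make-up therefore cannot be told apart.

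The later hepatectomy libraries of Tnf ranged from 82.9 to 405 CPM, far below the 1488 to 2378 CPM of POD1 (adjusted p = 0.0118 over the days). Those of Tnfrsf1b ranged from 170 to 881 CPM (adjusted p = 0.00668). Tnfrsf9 was at 0.66 CPM or less in every later hepatectomy library (adjusted p = 0.000185), and Tnfrsf26 was at 9.39 to 31.2 CPM (adjusted p = 0.000242). In the other direction, Tnfsf10 was at 5.11 to 61.1 CPM (adjusted p = 0.0142), Tnfsf12 at 4.45 to 49.1 CPM (adjusted p = 0.00544) and Tnfsf13 at 0.41 to 2.11 CPM (adjusted p = 0.000923) on the later days.

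After sham no member differed between days by the edgeR test, where 0% of all genes did, and 15 members and 2810 genes (19.6%) had an unadjusted p under 0.05. DESeq2 called 12 members (41.4%) and 1527 genes (10.7%). Without replicate 3 of sham at POD1, the edgeR test called 10 members (34.5%) and 2566 genes (17.6%), among them Tnf, Tnfrsf1b, Ltb, Tnfsf13b and Tnfsf14. The difference between the operations over the days, tested as an interaction, passed for Tnfsf13 alone (3.45% of members, where 8.68% of all genes passed; adjusted p = 0.0166), and this call was lost without any 1 of the 3 hepatectomy libraries of POD1.

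**Figure D4:**
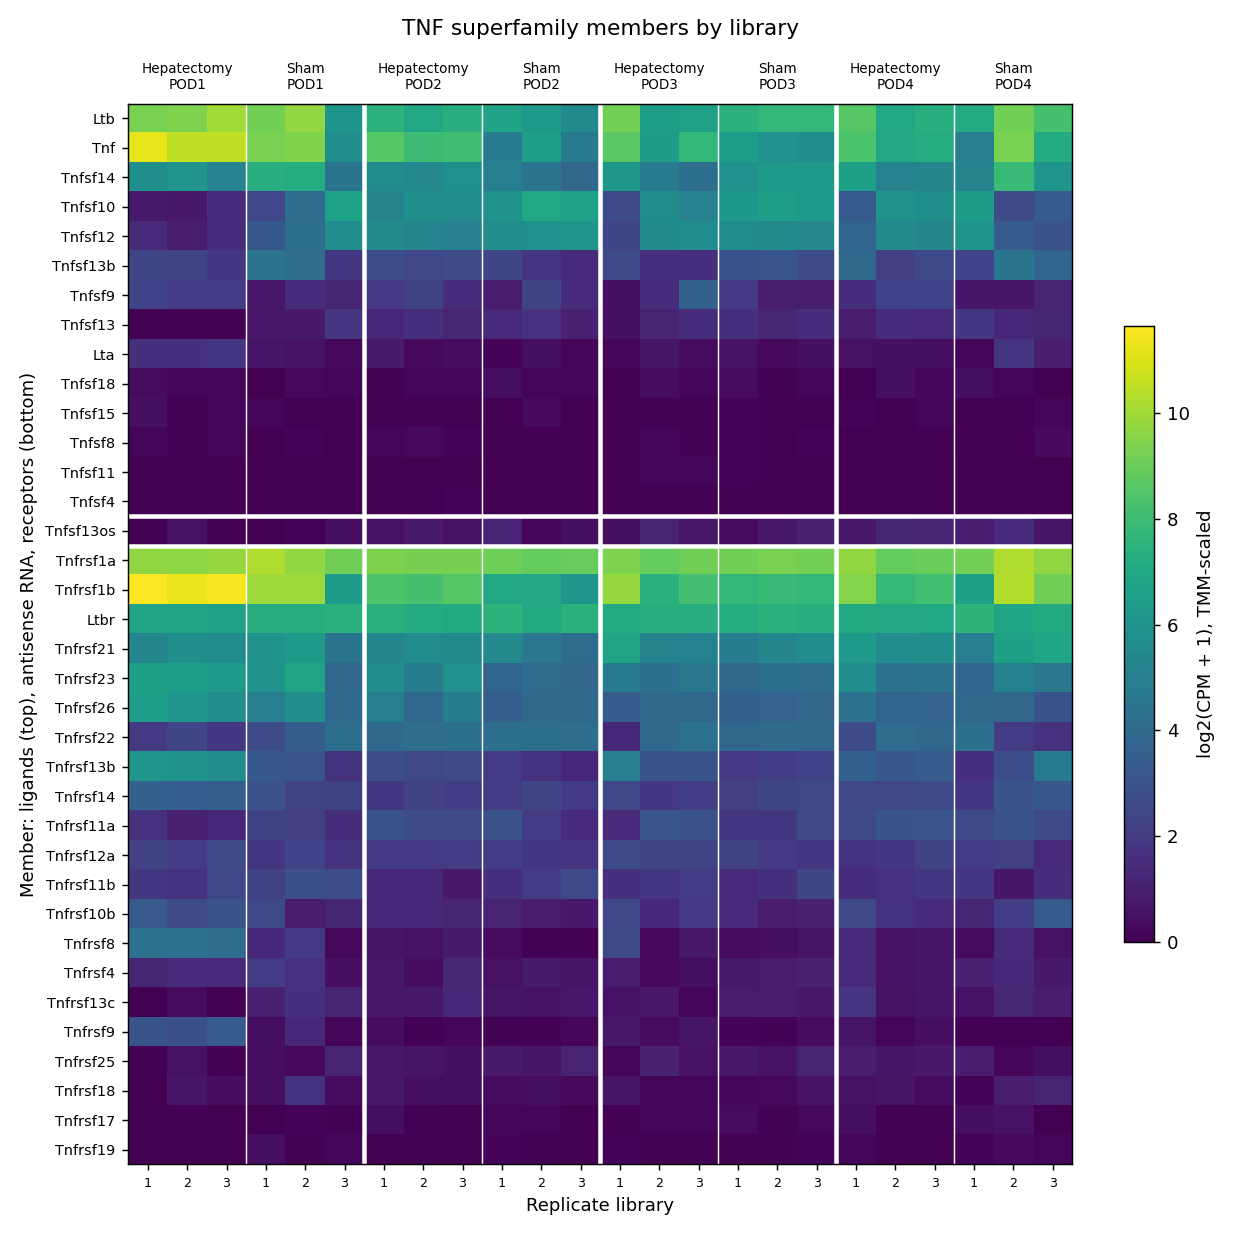
Log2(CPM + 1), TMM-scaled, of all 36 members (rows, ligands at the top, then Tnfsf13os, then receptors) in the 24 libraries (columns, by day, with hepatectomy left of sham). Tnf, Tnfrsf1b, Tnfrsf1a and Ltb form the bright rows, and the 7 members too low to test are dark in every library.

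The levels of 4 members, chosen after their values were seen, are given here by the make-up of the late libraries. On POD3 and POD4, 4 libraries had a low endothelial score: replicate 1 of hepatectomy on both days and replicates 2 and 3 of sham at POD4. Tnfsf10 was at 5.11 and 8.77 CPM in these hepatectomy libraries and 5.63 and 9.28 CPM in these sham libraries. In the other 8 libraries of those days it was at 35.4 to 61.1 CPM after hepatectomy and 72.7 to 88.1 CPM after sham. Tnfsf12 was likewise at 4.45 and 12.7 CPM in these hepatectomy libraries and 9.30 and 6.90 CPM in these sham libraries, while the others held 39.0 to 49.1 CPM after hepatectomy and 41.3 to 63.8 CPM after sham.

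Tnfrsf1b ran the other way. It was at 881 and 709 CPM in the low-score hepatectomy libraries and 1268 and 551 CPM in the low-score sham libraries, while the others held 170 to 287 CPM after hepatectomy and 96.3 to 226 CPM after sham. Tnf was at 405 and 328 CPM in the low-score hepatectomy libraries and 623 and 145 CPM in the low-score sham libraries, while the others held 82.9 to 208 CPM after hepatectomy and 30.3 to 87.9 CPM after sham, so that 1 low-score sham library lay within the range of the other hepatectomy libraries. Without these 4 libraries, a choice made after seeing the data, 16 members passed at POD1 (55.2%), 9 higher and 7 lower, beside 54.2% of all genes (18.5% higher and 35.7% lower), and the 12 calls of the full fit were among them. The part of cell make-up in these levels was not tested, and at POD1 the scores of the operations do not overlap, so that operation and make-up cannot be told apart there.

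**Figure D5:**
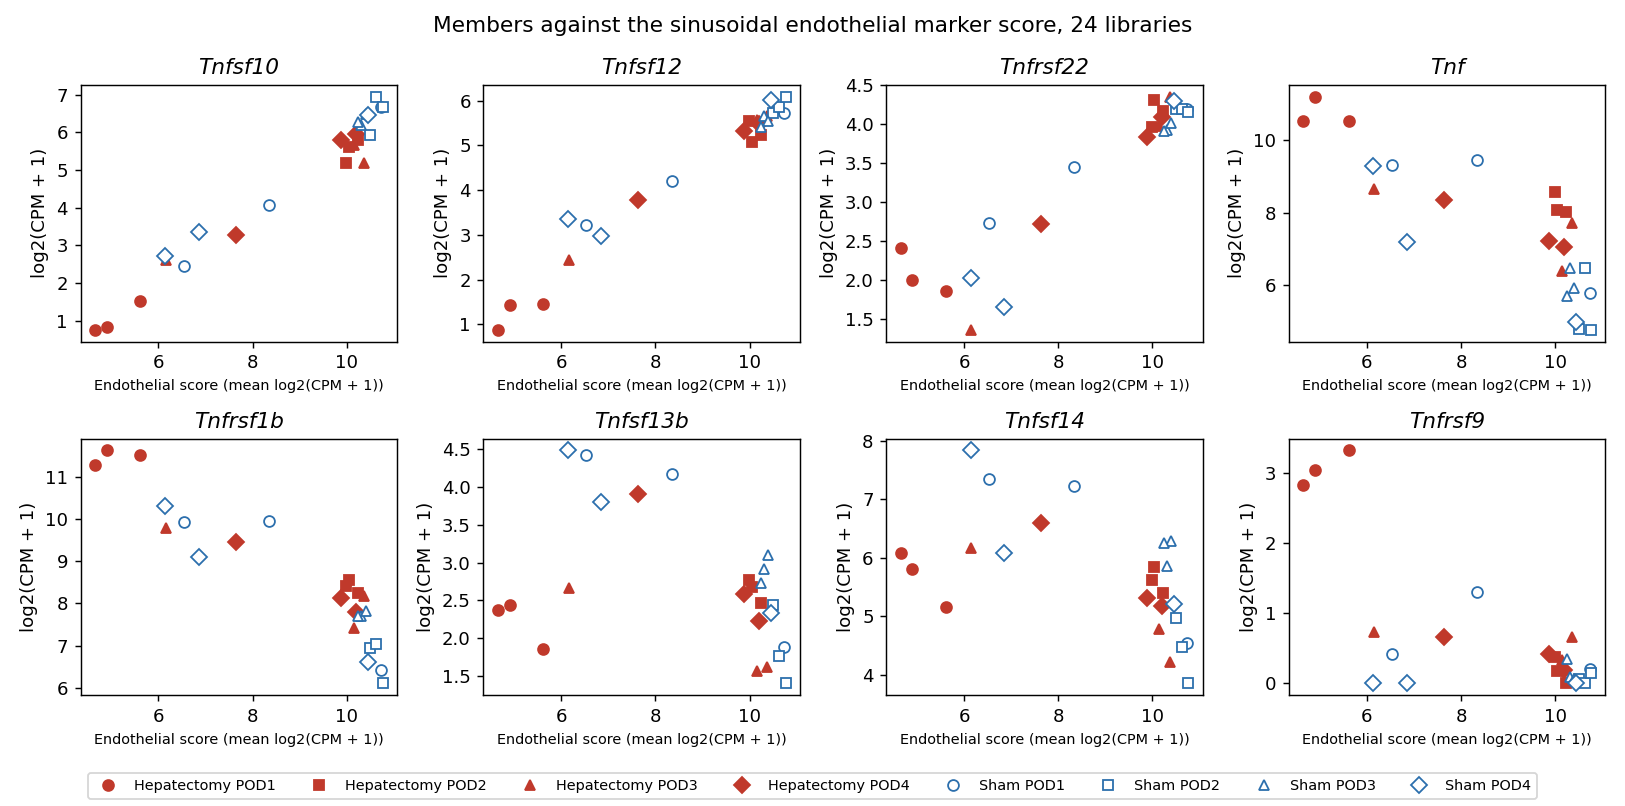
Log2(CPM + 1), TMM-scaled, of 8 members (vertical axes) against the endothelial score (horizontal axes) in the 24 libraries, with hepatectomy as filled red and sham as open blue symbols and a symbol shape for each day. Tnfsf10, Tnfsf12 and Tnfrsf22 are lower in libraries of low score, and the highest points of Tnf and Tnfrsf1b lie there.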

How the data were processed

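Poly-A RNA of 24 libraries was measured by sequencing. Per the submitters' processing notes, adapters were trimmed with cutadapt and reads were aligned with STAR 2.4.2a to GRCm38 and counted with HTSeq; the annotation release, strand setting and any filter are not given in the sources used here. The authors deposited unnormalized counts, 1 row a gene symbol, as whole numbers whose totals per library range from 10390216 to 16949088.

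All 24 libraries were fitted together over the 8 groups with edgeR 4.0.16 in R 4.3.3 (quasi-likelihood F test, TMM scaling, filterByExpr, 14325 genes tested, 16 residual degrees of freedom). P-values were two-sided and adjusted by the Benjamini-Hochberg method over all genes at 0.05. SEs of fold changes are approximate, computed as |log2 fold change| / √F. Intervals and floors (3 counts) cover counting error only. In simulated counts, 200 of 14325 genes were changed by a log2 fold change of 2, up or down, at POD1 after hepatectomy. The fit called 40.5% of these and made 4 false calls, so a gene that did not pass is not shown to be unchanged. The simulated libraries did not differ in cell make-up, so this outcome does not cover such differences.

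The members, the gene lists and the rule for named genes were chosen with earlier results of these data known. The rule gives every library's value for members that pass on a day and for Tnf, Tnfrsf1a, Tnfrsf1b, Lta, Ltb and Ltbr, and up to 4 genes with the lowest p of each pathway list. Rela, Tnfaip3, Nfkbia, Adam17, Rhbdf2 and the members given as separate without passing were named after their values were seen. The 4 promoters printed were chosen after the values of these genes were seen. Coordinates and exon lengths are from GENCODE M21 (GRCm38), and promoter sequences are from RefSeq (GRCm38.p6). Alternatives were DESeq2 1.42.0, other scalings and low-count filters, a replicate block, an endothelial score as covariate, single-day fits, leaving out each library in turn and, added after seeing the data, leaving out 4 libraries of low endothelial score.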

Additional observations from a re-analysis of the deposited data

Results flagged for a closer look

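Tnfsf13 was the 1 member whose difference between hepatectomy and sham changed between the days by the test of the interaction itself (edgeR quasi-likelihood F test over 3 coefficients, adjusted p = 0.0166 over all genes). The call was lost without any 1 of the hepatectomy libraries of POD1 (adjusted p = 0.0705, 0.056 and 0.0589 without replicates 1, 2 and 3) and was kept without any 1 of the other 21 libraries. It had 0 counts in all 3 hepatectomy libraries of POD1, against 0.67 to 2.48 CPM in the sham libraries of POD1. On the later days it was at 0.41 to 2.11 CPM after hepatectomy and 1.13 to 2.55 CPM after sham. Its exons overlap the read-through gene Tnfsfm13 and the antisense RNA Tnfsf13os, and the part of this overlap in the result was not tested.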

How the results depend on the processing

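None of the 12 members called at POD1 changed direction under any alternative. The 12 calls at POD1 were all kept with DESeq2, the replicate block and the fit without the 4 libraries of low endothelial score. DESeq2 also called Tnf, Tnfrsf1b and Tnfrsf10b, and the block also called Tnfrsf1b and Tnfrsf10b. The fit without the 4 libraries also called Tnf, Tnfrsf1b, Tnfrsf10b and Tnfrsf22. The filter that asks for 5 CPM in 3 libraries kept the 8 it tested. Size factors lost Ltbr and Tnfsf13b and gained Tnfrsf1b. Library size alone lost Tnfrsf14 and Tnfrsf26. It gained 8 members, all lower: Tnfsf14, Tnfrsf1a, Tnfrsf11a, Tnfrsf11b, Tnfrsf18, Tnfrsf21, Tnfrsf22 and Tnfrsf25. No low-count filter lost Ltbr and Tnfrsf26. The fit of POD1 alone, which tested 11, lost Ltbr, Tnfrsf14, Tnfrsf26 and Tnfsf13b. The endothelial covariate lost Lta, Ltbr, Tnfrsf14, Tnfrsf26, Tnfrsf8 and Tnfsf10 and gained 5 other members. The covariate is circular for genes of endothelium. At POD1 and POD2 the scores of the operations do not overlap. The cause of these changes was not tested. Levels under 1 CPM rest on few counts and are limited by depth.

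At POD1, library size alone called 610 genes higher and 8066 lower (1857 and 4009 in the fit reported), and the endothelial covariate called 3 members higher and 8 lower (6 and 6). Totals of calls that moved by over 1.5 times are these. With DESeq2, 211 genes were called at POD2 (14 in the fit reported), 295 at POD3 (3), 34 at POD4 (0), 3355 for the interaction (1244), with 7 members (1), and 1527 genes and 12 members for days after sham (0). Size factors called 30 genes at POD2 and 1 for days after sham. The 5 CPM filter called 23 genes at POD2, 2 at POD4 and 1 for days after sham, and 0 members for the interaction, since Tnfsf13 was not tested. The endothelial covariate called 1049 genes and 3 members at POD2, 1374 genes and 2 members at POD3 (Tnfsf13b and Tnfsf14, both lower), 27 genes at POD4, 4893 genes and 6 members for the interaction, 118 genes for days after sham, and 9 members for days after hepatectomy (15). Library size alone called 4 genes at POD2, 5 at POD3, and 2533 genes and 5 members for the interaction. No filter called 7 genes at POD2, 673 for the interaction and 1 for days after sham. Single-day fits called 2404 genes and 7 members at POD1 (5866 and 12), 3802 genes and 9 members at POD2 and 0 genes at POD3. The fit without the 4 libraries called 180 genes at POD2, 157 at POD3, 3762 genes and 9 members for the interaction, and 1506 genes and 7 members for days after sham.

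Leaving out each of the 24 libraries in turn gave 8 to 16 members and 3304 to 6784 genes at POD1. The fewest genes at POD1 came without replicate 3 of sham at POD1 (3304) and without replicate 1 of hepatectomy at POD1 (3758). It gave 0 members on POD2 to POD4, with 0 to 44, 0 to 18 and 0 to 3 genes called on those days. The interaction ranged from 0 to 8 members and 446 to 4744 genes, days after hepatectomy from 9 to 17 members and 3032 to 7611 genes, and days after sham from 0 to 13 members and 0 to 3396 genes.

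The labels do not say whether a replicate number marks a shared day or batch. Deviations of same-numbered libraries correlated from -0.90 to 0.24, so the numbers were not used as pairs. With the block, 14 members were called at POD1 (8 higher, 6 lower) and 5397 genes, and 1 gene at POD3 (3).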
